A study of Macaca mulatta with 4 samples.

Results

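Chromosome 18 of the rhesus macaque (Macaca mulatta) was described here through its H3K27me3 coverage in morulae. The chromosome was cut into 7012 bins of 10 kb, from position 0 to the highest interval end over all libraries (70118848 on the build rheMac8), out of 283406 bins in the whole series. It was selected on measured values, because its covered percentage lay above the autosomal level in both libraries labelled AG and below that level in both libraries labelled GG. That choice rests on measured coverage, so coverage of the chromosome in AG and GG is described without a test.

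There were 2 libraries from AG morulae and 2 from GG morulae. The series describes these as androgenetic embryos, whose nuclear genome comes from the father only, and gynogenetic embryos, whose nuclear genome comes from the mother only. All 4 libraries were made by CUT&RUN with an antibody against H3K27me3, although the sample titles name ChIP-seq. No label gives the number of embryos per library or says that replicates came from separate pools, so the spread between replicates may be technical. No normally fertilized embryo and no control library was used here.

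PRC2, a Polycomb complex, trimethylates lysine 27 of histone H3, and the mark goes with silenced chromatin, often over developmental genes and in broad domains. In early mouse embryos H3K27me3 inherited from the oocyte silences the maternal allele of a set of genes, a form of imprinting that does not need DNA methylation. A uniparental embryo carries the chromosome from a single parent, so its coverage can be read without telling alleles apart. Macaque chromosome 18 is the counterpart of human chromosome 18, a gene-poor chromosome. In the RefSeq annotation of another macaque assembly, T2T-MMU8v2.0, chromosome 18 has 319 protein-coding genes, the fewest of the 20 autosomes (range 319 to 2164). Among the genes looked up there, it carries the endoderm factor GATA6 and the zinc-finger gene SALL3, from a list of 15 genes that all lie on it. It also carries all 7 desmosomal cadherins, 8 of 12 clade B serpins and IMPACT, which is imprinted in mouse. The lists were drawn up for this chromosome, so these counts do not show that it is rich in such genes. Genes were not placed on the bins, because that assembly is not the build of the intervals.

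Each deposited interval was read here as a run of bases under tags that the submitters kept inside enriched islands. How tags were joined was not given. Tag numbers are not recorded, so depth is unknown, and the absence of an interval does not show that the mark is absent. SICER, the island caller, ran with a 200-bp window and a 200-bp gap for AG but a 300-bp window and a 1200-bp gap for GG. Group and caller settings cannot be told apart. Over the autosomes 0.497% and 0.635% of bases were covered in the AG libraries, and the GG libraries covered 7.80% and 7.23%. Chromosome 18 held 1494 and 1437 intervals in the AG replicates and 5206 and 3743 in the GG replicates. With 2 libraries against 2, the smallest p an exact two-sided permutation test can give is 0.333.

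Chromosome 18 was covered to 0.660% in AG replicate 1 and 0.777% in AG replicate 2. The GG libraries covered 4.84% in replicate 1 and 4.36% in replicate 2. The groups did not overlap, and GG was the higher group in absolute coverage, as over the autosomes together. Divided by the autosomal level of the same library, AG replicates 1 and 2 lay at 1.33 and 1.22, and GG replicates 1 and 2 at 0.621 and 0.603. The AG mean was 1.28 ± 0.0762 and the GG mean 0.612 ± 0.0128 (SD, n = 2 each). Among the 20 autosomes chromosome 18 ranked 6 from the top in AG and 17 from the top in GG. The 19 other autosomes ranged from 0.553 to 1.63 in AG and from 0.316 to 1.80 in GG.

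Chromosome 11 also lay on the chosen sides of the autosomal level, at 1.41 and 1.19 in the AG replicates and 0.843 and 0.739 in the GG replicates. Just outside the rule were chromosome 17, where AG replicate 2 lay at 0.993, and chromosome 8, where GG replicate 1 lay at 1.002. GG covered 6.40 times as many bases of chromosome 18 as AG, from group means, and 13.5 times as many bases over the other autosomes. In this ratio chromosome 18 was the second lowest autosome, after chromosome 17 at 3.98 and before chromosome 11 at 8.19.

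Coverage of chromosome 18 was piled up at the far end of the chromosome in both groups. The last 5 Mb, the 500 bins from position 65120001 on, make up 7.13% of its length. They held 52.3% and 51.3% of its covered bases in the AG libraries, and 47.0% and 56.9% of those in the GG libraries. In kilobases, this was 242.3 and 279.5 in AG, and 1596 and 1739 in GG. The 38 ends of the other autosomes, measured over the same length, held between 0.845% and 35.6% of their chromosome's bases in AG and between 0.580% and 22.1% in GG. These shares are not comparable across chromosomes, since 5 Mb make up 2.22% of chromosome 1 and 9.32% of chromosome 19. The last 5 Mb of chromosome 3, 2.69% of its length, held 20.5% of its AG bases. The first 5 Mb of chromosome 6, 2.78% of its length, held 22.1% of its GG bases. This end segment was singled out after its coverage was seen, and autosome ends were already known to be densely covered in these libraries.

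**Figure D1:**
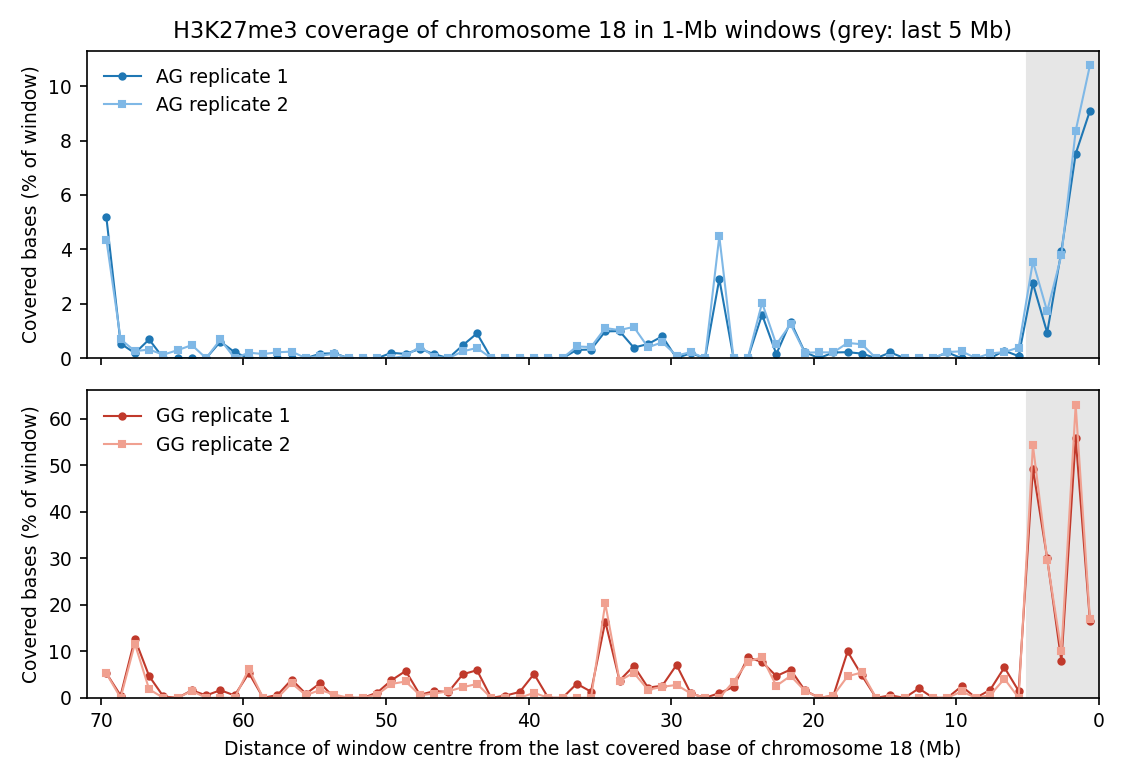
Covered bases of chromosome 18 as a percentage of each 1-Mb window (y axes, AG above and GG below on different scales) against the distance of the window from the last covered base in Mb (x axis). Points are single libraries; both groups peak in the grey last 5 Mb, where AG is highest in the last full window (9.09% and 10.8%) and GG in the window before it (55.9% and 63.0%); the partial window after it is not drawn.

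The position of chromosome 18 above the autosomal level in AG was carried by this end segment. Without it, AG replicates 1 and 2 lay at 0.683 and 0.640 times the autosomal level, a mean of 0.662 ± 0.0299 (SD, n = 2). GG replicates 1 and 2 then lay at 0.354 and 0.279 times that level, a mean of 0.317 ± 0.0529. With the first and last 5 Mb taken off every autosome, chromosome 18 lay at 0.668 ± 0.0170 in AG and, in GG, at 0.343 ± 0.0517 (SD, n = 2 each). It then ranked 18 from the top in AG and 19 in GG among the 20 autosomes. Under the same trimming chromosome 11 stayed above the level in AG, at 1.41 ± 0.0690. A fall of the AG mean to below the level was not particular to chromosome 18. Chromosome 17 went from 1.07 ± 0.104 to 0.783 ± 0.0885, and chromosome 20 from 1.22 ± 0.329 to 0.835 ± 0.218.

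**Figure D2:**
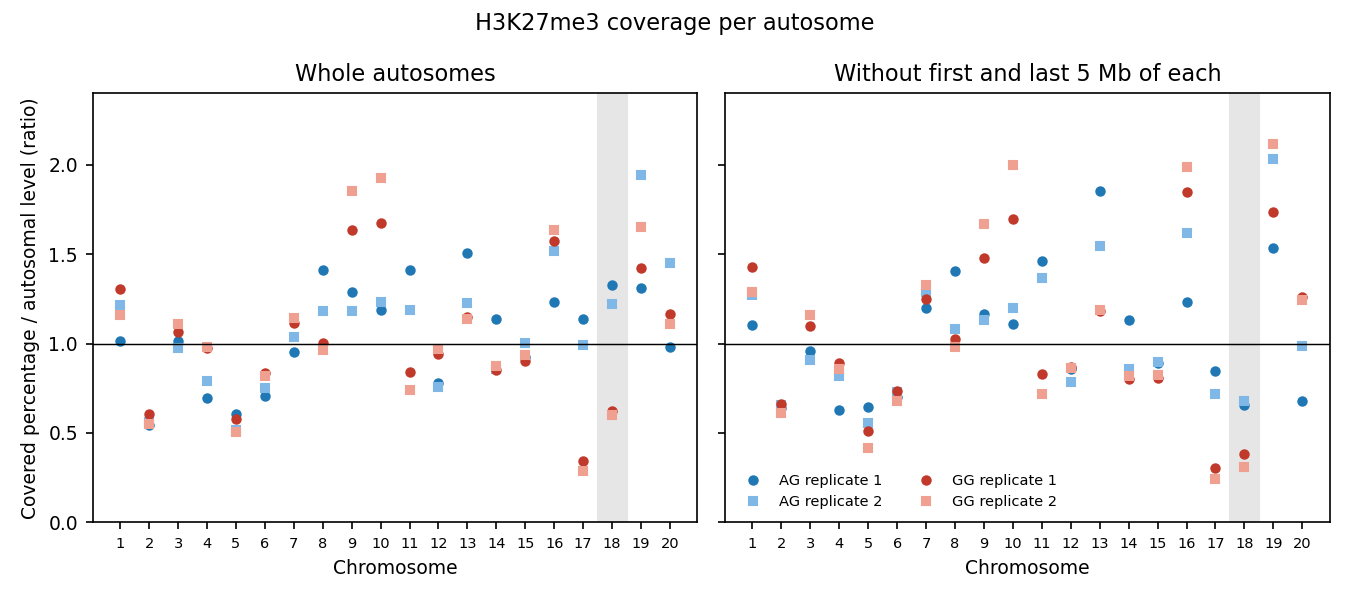
Covered percentage of each autosome divided by the autosomal level of the same library (y axis) for chromosomes 1 to 20 (x axis), whole on the left and without both 5-Mb ends on the right. Points are single libraries and the line marks the autosomal level; chromosome 18 (grey) has its AG points at 1.33 and 1.22 on the left and at 0.656 and 0.680 on the right.

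The ratio between the groups varied along the chromosome. GG covered 6.39 times as many bases as AG in the last 5 Mb (5.71 to 7.18 over the 4 pairs of an AG and a GG library) and 6.41 times as many in the rest as a whole (4.96 to 8.15). That rest was uneven, with a ratio of 3.42 in the first 5 Mb (2.84 to 4.07) and 7.43 between the ends (5.44 to 10.1). The other autosomes had ratios of 9.68 in their first 5 Mb, 14.5 between the ends and 11.6 in their last 5 Mb. In each of these 3 segments the ratio was lower on chromosome 18 than on the other autosomes together. The chromosome was chosen for high AG and low GG coverage, so this is no separate result. Chromosome 17 was lower still in each segment. Its ratio between the ends was 5.09. Its mean coverage was 2.53% in AG and 6.39% in GG in the first 5 Mb, and 2.95% and 8.74% in the last.

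Against the 40 ends of all autosomes, the last 5 Mb of chromosome 18 had the highest mean AG coverage. It lay at 9.76 and 8.80 times the autosomal level in AG replicates 1 and 2, a mean of 9.28 ± 0.679 (SD, n = 2). The next ends were the first 5 Mb of chromosome 1 at 8.02 ± 1.74 and the last 5 Mb of chromosome 3 at 7.57 ± 0.265. The SD ranges of chromosome 18 and chromosome 1 overlap, and in AG replicate 2 the chromosome 1 end was the higher, at 9.25 times. In GG the same segment lay at 4.09 and 4.81 times the autosomal level, and 4 ends were higher. The first 5 Mb of chromosome 18 differed from its other end. There the AG libraries lay at 2.66 and 1.81 times the autosomal level, rank 29 of 40, and the GG libraries at 0.602 and 0.518 times, rank 38 of 40.

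**Figure D3:**
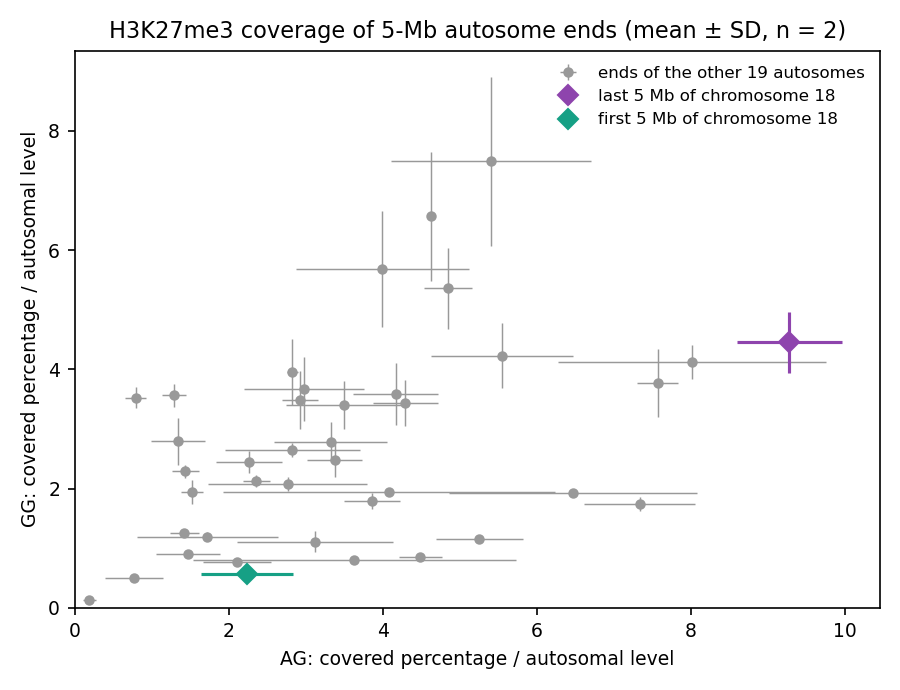
Coverage of the first and last 5 Mb of each autosome relative to the autosomal level, AG on the x axis and GG on the y axis (mean ± SD, n = 2 libraries each). The last 5 Mb of chromosome 18 stand farthest right at 9.28 in AG and 4.45 in GG, and its first 5 Mb lie at 2.23 in AG and 0.560 in GG.

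Within the last 5 Mb the groups peaked in different megabases. From 65000001 to 66000000 coverage was 2.75% and 3.55% in the AG replicates and 49.3% and 54.3% in the GG replicates. From 66000001 to 67000000 it was 0.940% and 1.72% in AG and 30.0% and 29.7% in GG. From 67000001 to 68000000 AG rose to 3.94% and 3.79%, whereas GG was down at 7.83% and 10.0%. From 68000001 to 69000000 both were high, at 7.51% and 8.36% in AG and 55.9% and 63.0% in GG. From 69000001 to 70000000 AG reached its highest values, 9.09% and 10.8%, and GG was at 16.5% and 16.9%. The GG to AG ratio of covered bases thus went from 16.4 and 22.4 in the first pair of these windows to 2.31, 7.49 and 1.68 in the 3 that follow. The groups did not overlap in any of these 5 windows, and GG was the higher group in each. This order is not particular to them, since GG covered 6.40 times as many bases over the chromosome and 13.5 times over the other autosomes.

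Along the rest of the chromosome coverage was sparse, with a few local peaks. In windows of 10 Mb, coverage was lowest in AG from 10000001 to 20000000, at 0.0343% and 0.107%, with GG at 0.192 and 0.179 times its autosomal level. It was lowest in GG replicate 2 from 50000001 to 60000000, at 1.06%, with 1.78% in GG replicate 1 and 0.102% and 0.172% in AG. Of 14 windows of 5 Mb, 5 lay above the autosomal level in each AG library and 1, the end window, in each GG library. Besides the first and the last window, the AG windows above it were the 3 from 35000001 to 50000000, at 1.25 to 1.51 times the autosomal level. GG lay at 0.199 to 0.926 times its level there. Coverage of the first megabase was 5.18% and 4.36% in AG, with 5.30% and 5.25% in GG, so the groups were nearly level there, whereas GG covered 6.40 times as many bases over the whole chromosome. From 43000001 to 44000000 AG was above GG in absolute bases, at 2.92% and 4.48% against 1.01% and 0%. The highest GG megabase before the end segment was from 35000001 to 36000000, at 16.4% and 20.3%, with AG at 0.985% and 1.11%.

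Large stretches had no interval at all. No library had a covered base from 30670001 to 33600000 (2.93 Mb), from 16720001 to 19520000 (2.80 Mb) or from 26220001 to 28650000 (2.43 Mb). The longest stretch without an AG base ran from 26220001 to 33630000 (7.41 Mb), where GG replicates 1 and 2 had 77306 and 10808 covered bases. Bins with a base in any library numbered 812, or 11.6% of the chromosome's bins. The other autosomes had a median of 17.3%, and 3 of the 19 were lower. Assembly gaps and unmappable sequence were not analysed here, since no genome of this build was used.

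The lower GG level came with fewer marked bins. The higher AG level came with fuller marked bins and a slightly larger share of them, which lay in the end segment. A bin was called marked with at least 450 covered bases. In GG replicates 1 and 2, 8.50% and 6.67% of the chromosome's bins were marked, against 13.7% and 11.2% on the other autosomes together. The median covered bases per marked bin were 5602 and 7368 in the GG replicates, near the 5961 and 7282 of the other autosomes. In AG replicates 1 and 2, 2.35% and 3.37% of bins were marked, against 2.04% and 3.11% elsewhere. Of the 19 other autosomes, 8 and 6 had a larger share in these libraries. Without its last 5 Mb, chromosome 18 had 1.24% and 1.83% of bins marked in AG, below the other autosomes together. The AG median per marked bin was 2422 in replicate 1 and 1814 in replicate 2, against 1905 and 1480 elsewhere. In both AG libraries this median was above that of each of the 19 other autosomes, which reached at most 2304 and 1686. By the mean, 2790 and 2288 bases per marked bin in the AG replicates, 3 other autosomes were higher in each library.

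The fuller AG bins were not restricted to the chromosome's end. The medians were 2636 and 2036 in the last 5 Mb and 2203 and 1649 in the rest of the chromosome. In GG the corresponding medians were 8051 and 8947 in the last 5 Mb and 4522 and 5487 in the rest. A marked bin in the GG libraries was thus fuller at the end, by a larger margin than in the AG libraries. On the other autosomes GG bins were also fuller in the ends, at 7352 and 8339 against 5711 and 6998 in the inner parts. AG medians there were 1863 and 1455 in the ends against 1922 and 1490.

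Replicates shared most of their marked bins in GG and fewer in AG. In AG, 165 bins were marked in replicate 1, 236 in replicate 2 and 121 in both. In GG, 596 were marked in replicate 1, 468 in replicate 2 and 427 in both. Without AG replicate 1 the AG count is 236. The Jaccard index, the shared bins over the bins marked in either library, was 0.432 for AG and 0.670 for GG, and 0.129 to 0.166 in pairs that crossed the groups. The GG index was 0.925 in the last 5 Mb and 0.528 in the rest. The AG index was 0.457 and 0.408 in these segments. In the last 5 Mb the 2 GG libraries therefore marked nearly the same bins, whereas the AG libraries overlapped about as far as elsewhere on the chromosome. The other autosomes had a like contrast. Their GG index was 0.853 in the ends and 0.688 in the inner parts, and their AG index 0.382 and 0.406.

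Bases were shared less often between the groups on chromosome 18 than on most autosomes, counted from AG. Of the bases covered in AG replicate 1, 47.1% were also covered in GG replicate 1 and 42.0% in GG replicate 2, against 60.0% and 57.2% on the other autosomes. For AG replicate 2 these shares were 46.7% and 41.1%, against 56.8% and 53.3%. In each of the 4 pairs at least 16 of the 19 other autosomes had a higher share. Counted from GG the order turned. Of the bases covered in GG replicates 1 and 2, 6.42% and 6.36% were covered in AG replicate 1, against 3.75% and 3.85% on the other autosomes. Both orders go along with the smaller GG and larger AG coverage for which the chromosome was chosen.

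Both AG libraries marked 121 bins, of which 57 (47.1%, exact 95% confidence interval 38.0% to 56.4%) were also marked in both GG libraries. The other autosomes had a share of 60.5%, and 2 of the 19 were below chromosome 18. The interval covers counting error only, since neighbouring bins share islands. Another 52 AG bins lacked any base of the GG libraries, which is 0.742% of the chromosome's bins against 0.434% over all bins of the series. The reverse class, marked in both GG libraries without an AG base, held 305 bins, or 4.35% of the chromosome's bins against 8.44% over all bins. These shares restate the choice of the chromosome and are no separate result about it. The 57 bins marked in all 4 libraries had median coverages of 2918 and 2668 bases in the AG replicates, with 8190 and 9154 in GG. The 52 bins without a GG base had medians of 2764 and 2548, close to the shared bins.

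Both ends of the chromosome carried AG bins, but with different GG coverage. In the last 5 Mb, 63 bins were marked in both AG libraries, of which 35 were marked in both GG libraries and 25 (39.7%) had no GG base, near the 42.5% in the ends of the other autosomes. In the first 5 Mb, 16 bins were marked in both AG libraries, and 14 of these lay in the first megabase. Of the 16 bins, 1 was marked in both GG libraries (6.25%, exact confidence interval 0.158% to 30.2%, for counting error only). The other 15 had no GG base (93.8%), against 42.5% in the ends of the other autosomes. These counts thus describe mainly the first megabase and not the whole 5 Mb. Between the ends 42 bins were marked in both AG libraries, with 21 marked in both GG libraries. Another 12 had no GG base (28.6%), near the 26.0% in the inner parts of the other autosomes. Of the 52 AG bins without a GG base, 4 were next to a bin marked in both GG libraries (7.69%), near the 9.13% on the other autosomes. Their median distance to such a bin was 145 kb, against 80.0 kb on the other autosomes.

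**Figure D4:**
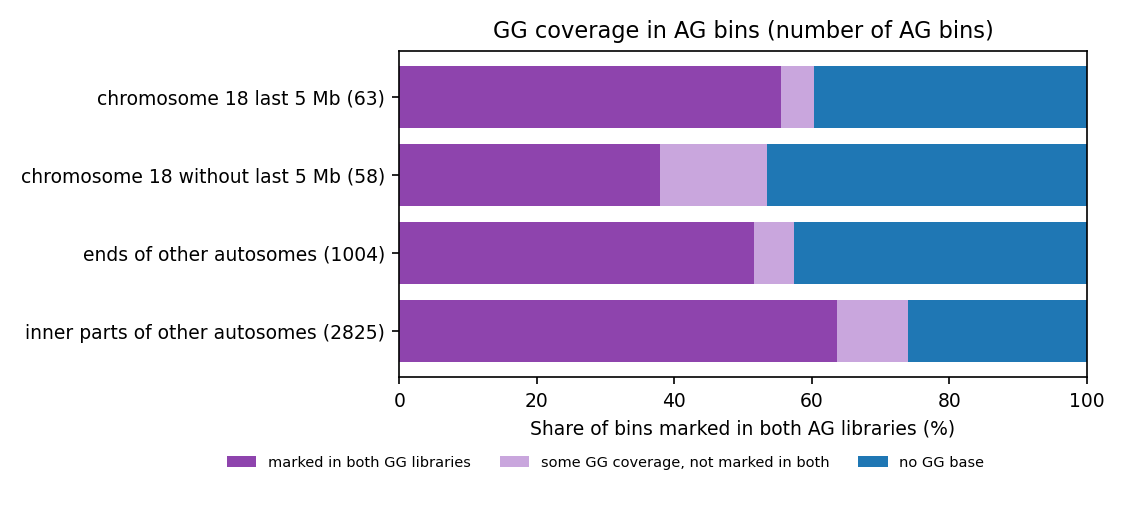
Bins marked in both AG libraries split by their GG coverage (x axis, percent of AG bins) for segments of chromosome 18 and of the other autosomes, with the number of AG bins in brackets. Bars start at 0; bins marked in both GG libraries make up 55.6% in the last 5 Mb of chromosome 18, 37.9% in its remainder, 51.6% in the ends of the other autosomes and 63.6% in their inner parts.

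The longest run of adjacent AG bins without a GG base lay near the chromosome's end, from 69480001 to 69550000. Its 7 bins held 21548 and 27758 covered bases in AG replicates 1 and 2, which is 30.8% and 39.7% of the run, and none in GG. The next runs were at the other end of the chromosome. From 890001 to 930000, 45.2% and 21.1% of bases were covered in AG, and the run from 770001 to 800000 held 7025 and 5087 covered bases in AG. The longest run of GG bins without an AG base had 23 bins, from 66010001 to 66240000, covered to 79.2% and 84.3% in the GG replicates. It was followed by runs from 65480001 to 65590000 (83.8% and 89.3%) and from 35280001 to 35380000 (84.3% and 89.7%). Bins marked in all 4 libraries formed runs of at most 3, and the first 3 of that length by position lay between 68780001 and 69080000.

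Intervals separated by gaps of up to 1500 bp were joined into domains. These were short in AG and broad in GG on chromosome 18, and broadest in GG at its end. The N50, above which width domains hold 50% of the summed domain width, was 4852 and 3314 bp in the AG replicates, against 24559 and 36550 bp in GG. On the other autosomes it was 4188 and 3302 bp in AG and 22484 and 30023 bp in GG. In the last 5 Mb the GG values were 55365 and 101466 bp, and in the rest of the chromosome 12494 and 14572 bp. The AG values were 5630 and 3272 bp in the last 5 Mb and 4450 and 3499 bp in the rest. GG domains were thus several times wider at the end than in the rest, and AG domains were not wider in both libraries. When each library was thinned to 42512 intervals, which removes mainly GG intervals, AG had an N50 of 4062 bp and GG of 3244 bp, so the order of the groups turned. Under a common clustering rule for all libraries AG had 3535 bp and GG 25192 bp, though that rule starts from islands already called with different gaps.

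The number of domains per megabase differed between the groups in the opposite way at the end. In the last 5 Mb there were 13.8 and 24.4 AG domains per Mb and 12.6 and 8.80 GG domains per Mb. In the rest of the chromosome there were 1.09 and 1.77 AG domains and 3.07 and 1.80 GG domains per Mb. The lower AG value at the end, 13.8, was close to the higher GG value, 12.6. As called, AG domains at the end were thus shorter than GG domains, and clearly more numerous in AG replicate 2 only. Group cannot be told apart here from the longer gap used to call GG islands. Thinning also turned the order of the chromosome's N50, to 4062 bp in AG and 3244 bp in GG.

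All of the 5 widest GG domains lying in both libraries were in the last 5 Mb. The widest ran from 68721595 to 68898073 (176.5 kb), with 92.2% and 95.8% of its bases covered in GG and 17.2% and 22.3% in AG. The second ran from 65975516 to 66115487 (140.0 kb), with 90.2% and 93.4% in GG but 0% and 0.504% in AG. The third, from 65280856 to 65376301 (95.4 kb), had 91.7% and 93.7% in GG and 5.38% and 10.9% in AG. The fourth, from 68545643 to 68639170 (93.5 kb), had 11.1% and 8.96% in AG, and the fifth, from 65535913 to 65627152 (91.2 kb), had 0% and 1.49%. Broad GG domains at the chromosome's end therefore differed in AG coverage, from 0% to 22.3%.

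The 5 widest AG domains lying in both libraries were much narrower and spread out. The widest, from 46880658 to 46895588 (14.9 kb), had 72.9% and 88.5% of its bases covered in AG and 67.1% and 63.0% in GG. The second, from 48788549 to 48799482 (10.9 kb), had 89.3% and 89.5% in AG and 99.1% and 97.6% in GG. The third, from 896110 to 905299 (9.19 kb), had 63.4% and 63.5% in AG and no GG base. The fourth, from 65384204 to 65392926 (8.72 kb), had 81.2% and 82.1% in AG and again no GG base. The fifth, from 69773899 to 69782103 (8.21 kb), had 78.5% and 75.1% in AG and 98.8% and 98.6% in GG. Of these 5 stretches, 3 were well covered in GG and 2 were bare.

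The fourth AG domain lay next to the third GG domain, and GG coverage ended between adjacent bins where AG coverage was higher on the far side. The bin from 65350001 to 65360000 was full in both GG libraries, with 10000 covered bases each, and had 0 in both AG libraries. The next bin had 9853 and 9464 covered bases in GG, with 0 in AG replicate 1 and 1852 in AG replicate 2. The bin from 65370001 to 65380000 had 7672 and 6301 covered bases in GG and 0 in AG. The bin after it, from 65380001 to 65390000, had 0 in both GG libraries and 5228 and 5376 in AG, and the following bin had 1855 and 2776 in AG and 0 in GG. Farther back in the GG domain, some bins held up to 3038 AG bases. This stretch was singled out after its values were seen.

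Tested bin by bin over the whole genome with limma, 490 bins of chromosome 18 passed a filter that asked for 750 covered bases in any 2 libraries. With coverage scaled to each library's total, 106 of these (21.6%) were higher in AG and 294 (60.0%) higher in GG at a Benjamini-Hochberg adjusted p under 0.05. Over all 30536 tested bins 10.7% were higher in AG and 75.6% higher in GG. The rule used this contrast, and 49 of the AG calls and 291 of the GG calls had no base in the other group, so nothing is read from these counts. Without scaling, AG had 51 higher bins and GG 357, against 3.85% and 85.1% over all bins, and the AG share of calls went from 26.5% to 12.5%. In the fits that left out a GG library, AG calls numbered 25 without replicate 1 and 26 without replicate 2. Among the 57 bins that all 4 libraries marked, the scaled fit called 47 for AG and 0 for GG (0 also at an unadjusted p under 0.05). The unscaled fit called 1 for AG and 39 for GG, so their direction followed the scaling. Over all 2374 tested bins of this kind the scaled fit called 1896 for AG and 0 for GG. The unscaled fit called 30 and 1598 there, so the pattern is not particular to chromosome 18.

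The bins with the highest AG side of this fit had no GG base. They were, in order, from 43820001 to 43830000 (7550 and 6241 covered bases in AG replicates 1 and 2), from 43780001 to 43790000 (4164 and 8074), from 65380001 to 65390000 (5228 and 5376), from 69490001 to 69500000 (3675 and 6557) and from 830001 to 840000 (6189 and 3715). The first pair flank a stretch where the GG libraries disagreed. From 43790001 to 43800000 the AG libraries had 5633 and 8451 covered bases, and the GG libraries 6190 and 0. The 5 bins farthest toward GG lay between 65350001 and 65740000, with 9850 to 10000 covered bases in each GG library and 0 in both AG libraries. These GG bins are at or near the ceiling of 10000 bases, where their order carries little, and 162 of the 294 GG calls lay outside the last 5 Mb.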

How the data were processed

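H3K27me3 CUT&RUN intervals of 4 libraries were used. The build was rheMac8, and deepTools 3.3.1, SICER 1.1, SAMtools, Bowtie2 and Trim Galore were used, per the submitters' processing notes. Their order of use and how tags were joined were not given in the sources used here. The names of the deposited files give the SICER windows and gaps and an E value of 0.001, with islands called per library. The deposited files hold start and end positions only, without counts, so neither depth nor intervals for counting error could be computed from tags.

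Covered bases were summed in 10-kb bins, and a bin was marked with at least 450 covered bases (3 times the commonest interval length of 150 bp in each file). Autosomal level means covered bases over span for chromosomes 1 to 20. Domains bridged gaps of up to 1500 bp and needed 450 covered bases. Bins on all chromosomes were tested with limma 3.58.1 (eBayes, trend) on the log2 scale, without a replicate block. Coverage was divided by library totals, with a scaled prior of 300 bases. The fit was also run on simulated bins, without scaling and modelled on bins with a base in all 4 libraries. That run does not cover the scaling or bins without a base in a group. Named items followed a rule: the 5 bins farthest toward AG and the 5 farthest toward GG among those called, the 5 widest domains per group and the 3 longest runs per class of bins. The 1-Mb windows and the split at the last 5 Mb were chosen after values were seen. The members, the rule and the lists were chosen with earlier results of these data known. Gene positions and sequences of rheMac8 were not used here. At most 1 interval of chromosome 18 was identical between any pair of libraries. Software was R 4.3.3 and Python 3.11.15 with matplotlib 3.10.9, scipy 1.17.1, numpy 2.4.6 and pandas 2.3.3.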

Additional observations from a re-analysis of the deposited data

How the results depend on the processing

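Of 85 alternative values, 58 stayed within the spread, the interval or 1.5 times the count. That number includes values that could not move. With 2 libraries per group, a single library always lies within the SD of their mean. Leaving out a library therefore tests nothing for relative coverage and N50. The relative coverage in AG turned to below the autosomal level, from 1.28 to 0.662 without the last 5 Mb and to 0.668 without the outer 5 Mb of every autosome (both chosen after seeing the data), where GG went from 0.612 to 0.317 and 0.343. Over bins with a base in any library it was 1.81 in AG and 0.868 in GG, and against the median autosome 1.17 in AG. Leaving out a library gave 1.22 to 1.33 in AG and 0.603 to 0.621 in GG. Bins marked in both GG libraries numbered 722 with 5-kb bins, 265 with 20-kb bins and 216 without the last 5 Mb. Thinning to 42512 intervals, which removes mainly GG intervals, left 91 such bins, a share of AG bins marked in GG of 4.96% and a GG N50 of 3244 bp, below the AG value of 4062 bp. Without the last 5 Mb there were 58 AG bins, 37.9% of them marked in GG, 51 limma calls in AG and 162 in GG, and a GG N50 of 13533 bp. Leaving out a library gave 165 to 236 AG bins, 468 to 596 GG bins and a share of 41.5% to 55.4%. The N50 then ranged from 3314 to 4852 bp in AG and from 24559 to 36550 bp in GG. Joining over 500 bp gave a GG N50 of 17831 bp and over 3000 bp an AG N50 of 5343 bp.

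Bins called higher in AG by limma numbered 51 without scaling and 67 with median-of-ratios factors. With 750 bases required in all 4 libraries, 54 of 55 tested bins were called for AG and 0 for GG (also 0 at an unadjusted p under 0.05). That filter drops bins without a base in a group. Over all bins of the series it gave 2101 of 2177 for AG and 0 for GG, so these counts are not particular to chromosome 18. Leaving out a library gave 25 to 127 calls in AG and 290 to 318 in GG, on the bins of the full fit and with the lone sample of a group assumed to vary like the other group. The median log2 difference over all tested bins was −3.47 when scaled and −4.32 without scaling. A replicate block gave 95 calls in AG and 293 in GG. Same-numbered libraries did not deviate together, so the numbers are not read as pairs. The correlation was 0.0124 over the 2567 bins with a base in all 4 libraries. Over all 30536 tested bins it was −0.0646, but a bin without a base in a group has no deviation there, which pulls that value to zero. Depth is unknown, and its part in any difference between the groups was not tested.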
